A study of Mus musculus with 9 samples.

Results

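The mitochondrial carrier family Slc25 was read across 3 groups of sorted mouse epithelial cells. Its members were all genes whose name in the array's annotation is Slc25a followed by a number. They were 42 genes with 71 probes, of 28478 gene names on the array. A gene was represented by whichever of its probes had the highest mean level, so 1 probe stands for each gene. Of the 42 members, 41 cleared the background well on each of the 3 arrays of some group and were tested among 19993 genes. Slc25a31, the ADP/ATP carrier of the testis, was above background on no array. Of the 41 tested, 32 were above background on all 9 arrays.

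The cells came from C57BL/6 mice with no genetic change or treatment named in the labels. Kidney cells were sorted as Epcam+ and CD45-, MHCIIhi cells of the small intestine as high for Epcam and for MHC class II, and MHCIIlo cells of the small intestine as intermediate for both. Epcam is a surface protein of epithelial cells, and CD45 marks leukocytes. Each group had 3 arrays, each made from the pooled cells of 4 mice (kidney) or 3 mice (intestine), so the spread between arrays is a spread between pools.

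Carriers of this family sit in the inner membrane of mitochondria and exchange metabolites between the matrix and the cytosol. They bring ADP and phosphate in and ATP out, move the intermediates of the citrate cycle, amino acids and cofactors, and include the uncoupling proteins. Each is built of a repeated module with a signature of proline, any residue, an acidic residue, any 2 residues and a basic residue. Kidney tubules and enterocytes are both rich in mitochondria, and the small intestine is a known site of glutamine use and of citrulline synthesis.

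Some array probes lie in coding sequence and carry the signature itself. Of those, 3 follow, with the signature codons in capitals, beside a probe of Slc25a33 in which a tryptophan codon takes the place of the acidic one. They show the signature of the family, and a change of it in the pyrimidine nucleotide carrier Slc25a33. The probes do not show whether other carriers share that change. Positions come from the annotation of the array (mm8), and a probe that spans more than its 60 bases crosses an intron there. The Slc25a30 probe lies at chr14:74503789-74504357 on the minus strand, the Slc25a26 probe at chr6:94563861-94564654 on the plus strand, the Slc25a3 probe at chr10:90552004-90552061 on the minus strand, where its annotated span is 58 bases, and the Slc25a33 probe at chr4:148593123-148596256 on the minus strand.
Slc25a30: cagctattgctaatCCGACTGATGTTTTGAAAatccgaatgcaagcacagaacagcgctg
Slc25a26: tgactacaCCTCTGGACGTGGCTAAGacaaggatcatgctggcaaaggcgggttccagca
Slc25a3: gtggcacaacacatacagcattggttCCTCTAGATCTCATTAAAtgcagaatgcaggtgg
Slc25a33: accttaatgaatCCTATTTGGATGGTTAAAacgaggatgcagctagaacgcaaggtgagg

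Slc25a4 and Slc25a5, ADP/ATP carriers that gave different results below, have probes in the same stretch of their coding sequences. With the Slc25a5 probe shifted by 6 bases the probes overlap over 54 bases, of which 45 match and 9, in capitals, differ (83.3% identity). The Slc25a4 probe lies at chr8:47706291-47706350 on the minus strand and the Slc25a5 probe at chrX:33229925-33229984 on the plus strand. How far each probe also binds the other transcript was not tested.
Slc25a4: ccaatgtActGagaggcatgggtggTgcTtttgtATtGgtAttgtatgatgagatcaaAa
Slc25a5: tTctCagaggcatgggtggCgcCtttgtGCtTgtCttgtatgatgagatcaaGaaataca

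The levels below are log2 processed signal minus the 75th percentile of the array, so a level of 0 is the signal that 75% of probes lie under. Levels of different genes come from different probes and are not set against each other. A member was called where limma's adjusted p over all 19993 genes was below 0.05 and the log2 difference was at least 1. Errors of differences are standard errors of the fit.

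Against the mean of the intestinal groups, kidney had 13 members higher and 8 lower of the 41 tested. Over all genes tested, 27.4% were called higher and 24.8% lower, against 31.7% and 19.5% of the members. The shares are near the background, so the family as a whole did not stand out, and the results below are those of its single members. Counts of substrate classes and partner lists in this comparison are to be read beside the same 27.4% and 24.8%. The median difference of the members was 0.26, against 0.00437 over all genes. Members enter the test through the group where they are well above background, so these counts do not cover all 42. In RNA of sorted pools, fewer cells of a type and less RNA per cell cannot be told apart. Kidney arrays lay on a slide of their own, so kidney and slide cannot be told apart either.

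Single members ranged over a difference of 4.84 to -4.04. The 8 lower ones were the adenine nucleotide carriers Slc25a24 and Slc25a25, the glutamate carrier Slc25a22, the ornithine carrier Slc25a15, the dicarboxylate carrier Slc25a10, the citrate carrier Slc25a1, Slc25a34 and the iron carrier Slc25a37. Among the 13 higher ones were the ADP/ATP carrier Slc25a4, both aspartate/glutamate carriers, 4 cofactor carriers and 2 of the 3 uncoupling protein-like carriers.

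**Figure D1:**
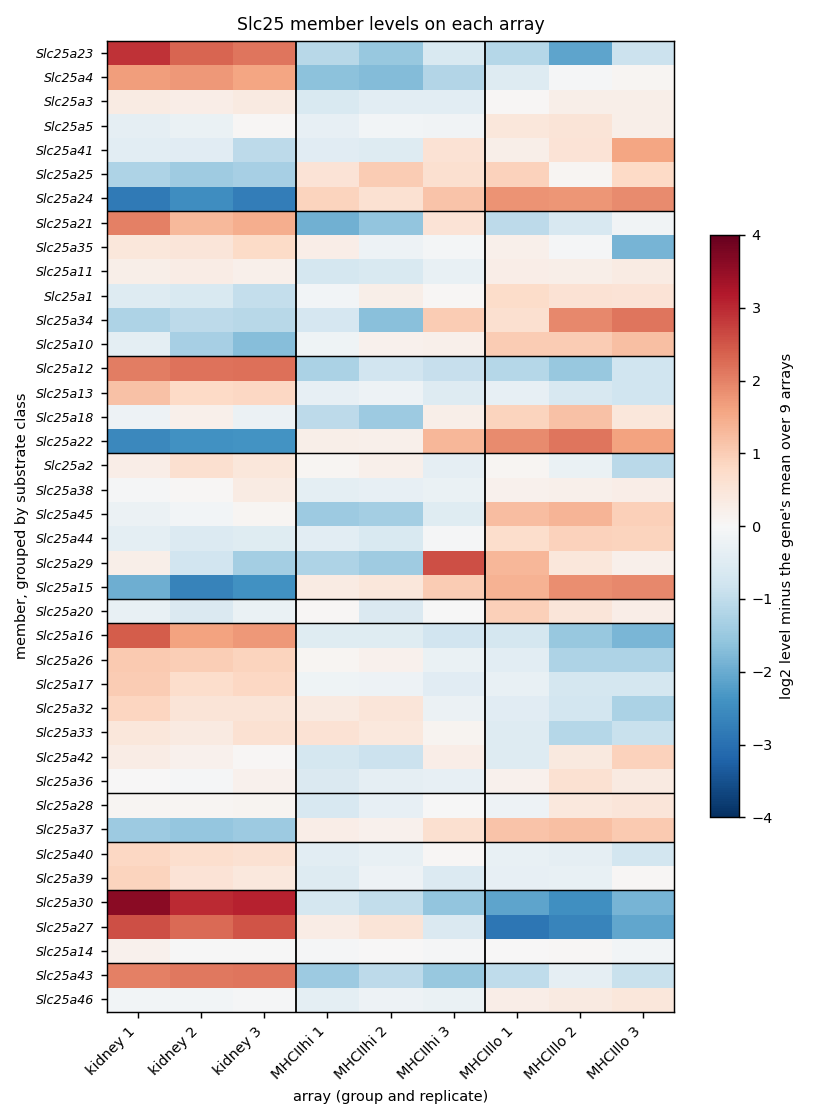
Levels of 40 of the 41 members tested (rows, grouped by substrate class) on the 9 arrays (columns), as log2 level minus the mean of the gene over all arrays. Slc25a30, Slc25a27, Slc25a23 and Slc25a12 are high on all kidney arrays, Slc25a24, Slc25a22 and Slc25a15 are low there, and Slc25a14 hardly varies.

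**Figure D2:**
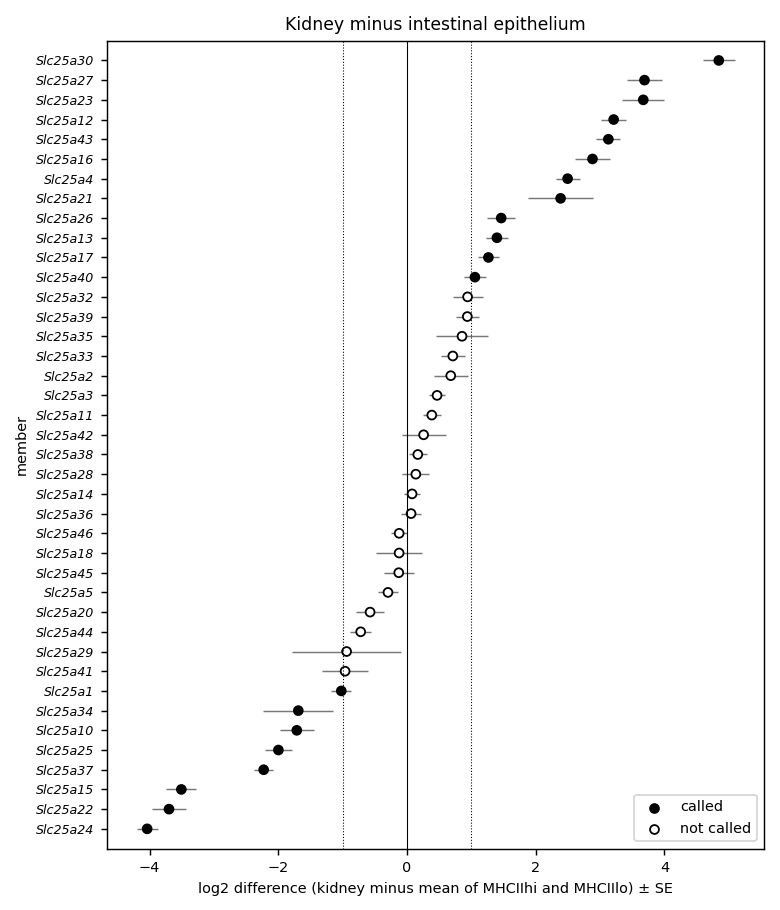
Log2 difference of kidney from the intestinal mean (kidney minus intestine) for the same 40 members, with its standard error (filled points were called, open ones were not, dotted lines mark a difference of 1). The 12 members plotted as called higher reach 4.84 for Slc25a30, and the 8 called lower reach -4.04 for Slc25a24.

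The ADP/ATP carriers Slc25a4 and Slc25a5 did not run alike. Slc25a4 had levels of 7.02, 7.10 and 6.92 in kidney, against 3.72, 3.63 and 4.18 in MHCIIhi and 4.85, 5.31 and 5.42 in MHCIIlo cells. Kidney lay above both intestinal groups on every array, and MHCIIhi below MHCIIlo on every array. The difference of kidney from the intestinal mean was 2.50 ± 0.19, adjusted p = 3.7e-06. Slc25a5, the form found in most tissues, had 6.59, 6.67 and 6.98 in kidney, against 6.60, 6.84 and 6.79 in MHCIIhi and 7.39, 7.45 and 7.18 in MHCIIlo cells, with a difference of -0.30 ± 0.15, adjusted p = 0.106, which was not called. Against MHCIIhi alone the difference of Slc25a5 was -0.00, with a standard error of 0.17, and against MHCIIlo it was -0.59.

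A second Slc25a4 probe, in another part of the transcript, gave 5.93, 6.06 and 5.87 in kidney, against 0.83, 0.18 and 1.85 in MHCIIhi and 2.27, 2.78 and 2.99 in MHCIIlo cells. Its kidney difference was thus 4.14, larger than the 2.50 of the probe that shares its stretch with Slc25a5. Both Slc25a4 probes put the groups in the same order. Slc25a3, the phosphate carrier, differed by 0.47 ± 0.13, adjusted p = 0.0100 and was not called. Its probe read 6.20, 6.13 and 6.22 in kidney, against 5.26, 5.45 and 5.46 in MHCIIhi and 5.92, 6.10 and 6.11 in MHCIIlo cells. Its other 2 probes, designed on another cDNA and including the one printed above, gave -0.73 and -0.75, the opposite sign.

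The ATP-Mg/phosphate carriers, which set the adenine nucleotide content of the matrix, split between the organs. Slc25a24 was lower in kidney, at -0.23, 0.13 and -0.17, against 3.51, 3.20 and 3.74 in MHCIIhi and 4.41, 4.36 and 4.50 in MHCIIlo cells, a difference of -4.04 ± 0.16, adjusted p = 1.0e-07. That was the most negative difference of the 41, and the kidney arrays lay far below all 6 intestinal arrays. Slc25a25 was lower too, at 1.11, 0.93 and 1.05 in kidney, against 2.91, 3.38 and 3.00 in MHCIIhi and 3.29, 2.43 and 3.17 in MHCIIlo cells (-2.00 ± 0.22, adjusted p = 3.6e-05). Slc25a23 ran the other way, with -0.34, -0.91 and -1.09 in kidney, against -4.32, -4.75 and -3.84 in MHCIIhi and -4.36, -5.34 and -4.09 in MHCIIlo cells. Kidney exceeded MHCIIhi by 3.52 ± 0.37, adjusted p = 4.4e-05. In MHCIIlo the Slc25a23 probe was not well above background on any array, and kidney was at least 8.84-fold higher there. With normexp background correction that difference was 0.84, less than the bound, and was not called. Such a bound sets the kidney mean against, on each dim array, the higher of the probe's own level and the lowest signal that was well above background. Slc25a41, the calcium-independent relative, stood near background in the intestine (2 of 3 MHCIIhi and 1 of 3 MHCIIlo arrays above it). It was not called against the intestinal mean (-0.96 ± 0.36, adjusted p = 0.0376), but was in 7 of 22 alternatives. Against MHCIIlo alone Slc25a41 was called lower in kidney (-1.43 ± 0.42, adjusted p = 0.0125), except with slide as a random block.

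Both aspartate/glutamate carriers, which feed the malate-aspartate shuttle of reducing equivalents, were higher in kidney. Slc25a12, also called aralar, had 3.55, 3.67 and 3.72 in kidney, against 0.24, 0.74 and 0.59 in MHCIIhi and 0.36, -0.02 and 0.70 in MHCIIlo cells. The difference was 3.21 ± 0.19, adjusted p = 9.1e-07, a 9.26-fold higher signal, with no overlap between kidney and intestinal arrays. Slc25a13, known as citrin, had 2.42, 2.04 and 2.09 in kidney, against 0.93, 1.06 and 0.73 in MHCIIhi and 0.93, 0.62 and 0.46 in MHCIIlo cells (1.40 ± 0.17, adjusted p = 7.4e-05). Neither carrier was called between the intestinal groups (0.18 and 0.24).

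Enzymes of the same shuttle did not all follow. Of 7 genes of the malate-aspartate and glycerophosphate shuttles, 1 was called higher and 2 lower in kidney. Got2, the mitochondrial aspartate aminotransferase, had 4.69, 4.24 and 4.45 in kidney, against 2.36, 2.79 and 1.76 in MHCIIhi and 1.31, 0.83 and 1.05 in MHCIIlo cells (2.78 ± 0.24, adjusted p = 8.5e-06). Gpd1 (-2.60 ± 0.37, adjusted p = 2.1e-04) and Gpd2 (-2.60 ± 0.32, adjusted p = 8.1e-05), the enzymes of the glycerophosphate shuttle, were lower in kidney. The cytosolic partner Got1 differed by 0.99 and Mdh1 by 0.24, neither of them called.

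The glutamate carrier Slc25a22 was lower in kidney, unlike the aspartate/glutamate carriers. Slc25a22, which brings glutamate into the matrix with a proton, had -1.52, -1.37 and -1.33 in kidney, against 1.29, 1.26 and 2.39 in MHCIIhi and 2.95, 3.19 and 2.68 in MHCIIlo cells. The difference was -3.70 ± 0.26, adjusted p = 2.7e-06, or 13.0-fold lower in kidney. Every kidney array lay below every intestinal array, and MHCIIhi 3 lay nearer to MHCIIlo than the other MHCIIhi arrays did. Its paralog Slc25a18 was above background in kidney alone, at -5.66, -5.26 and -5.68, near the limit of detection, so no fold is given for it, and it was not called. Among 7 genes of glutamine and glutamate breakdown, 3 were called higher and 2 lower in kidney. Aldh4a1 and Prodh2, enzymes of proline and hydroxyproline breakdown, were higher by 1.65 and 2.46, and Prodh was lower, at -1.20. Glud1, glutamate dehydrogenase, differed by 0.04 and was not called.

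Of 6 carriers of dicarboxylates, tricarboxylates and oxoacids, 3 were called lower in kidney and 1 higher, beside 24.8% and 27.4% of all genes. Slc25a10, which exchanges malate and succinate for phosphate, had 3.27, 2.34 and 1.98 in kidney, against 3.51, 3.84 and 3.87 in MHCIIhi and 4.68, 4.68 and 4.89 in MHCIIlo cells (-1.71 ± 0.27, adjusted p = 3.6e-04). Kidney 1 stood above the other kidney arrays and still below every intestinal array. Slc25a1, the citrate exporter that supplies carbon for lipid synthesis, had 2.21, 2.11 and 1.76 in kidney, against 2.60, 2.94 and 2.76 in MHCIIhi and 3.46, 3.29 and 3.25 in MHCIIlo cells (-1.02 ± 0.16, adjusted p = 3.4e-04). The Slc25a1 difference is close to the size limit of 1, and fell short of it at -0.68 under quantile normalization, at -0.83 with normexp background correction, at -0.98 without MHCIIhi 2, at -0.99 without MHCIIlo 1 and at -0.89 without kidney 3. Slc25a11, the 2-oxoglutarate carrier, differed by 0.38 ± 0.14, adjusted p = 0.0311 and was not called.

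Slc25a34, with no substrate given here, had -4.86, -4.67 and -4.75 in kidney, against -4.29, -5.29 and -2.62 in MHCIIhi and -2.99, -1.73 and -1.49 in MHCIIlo cells. Its difference was -1.69 ± 0.54, adjusted p = 0.0202, and the call was lost without kidney 1 (adjusted p = 0.0619) and without kidney 3 (adjusted p = 0.0552). Slc25a21, which carries oxoadipate and oxoglutarate, was above background in kidney alone, at -3.46, -4.17 and -4.04. Kidney was at least 2.20-fold higher than MHCIIhi and at least 1.03-fold higher than MHCIIlo. Slc25a21 entered the test through kidney alone, so the adjusted p of 0.00250 sets kidney against intestinal values at background. With normexp background correction the sign of the Slc25a21 difference turned (-0.73), and with the mean of the gene's probes the call was lost (0.43, adjusted p = 0.326).

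In the citrate cycle itself, 5 of 18 genes were called higher in kidney and 1 lower, beside 27.4% and 24.8% of all genes. Idh2, the NADP-dependent isocitrate dehydrogenase of mitochondria, was higher by 3.38 (adjusted p = 1.6e-06), Suclg2 by 1.96 and Sdha by 1.30. Cs, citrate synthase, was lower, at -1.40 (adjusted p = 2.6e-04). Acly, which cleaves exported citrate in the cytosol, differed by -0.48 and was not called.

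Slc25a15 exchanges ornithine and citrulline across the inner membrane and links the mitochondrial to the cytosolic steps of the urea cycle. It had levels of -3.33, -4.05 and -3.79 in kidney, against -1.05, -0.92 and -0.37 in MHCIIhi and 0.01, 0.48 and 0.55 in MHCIIlo cells. Kidney was 11.4-fold lower (-3.51 ± 0.23, adjusted p = 1.6e-06), with every kidney array below every intestinal array. Its paralog Slc25a2 was above background on 2 of 3 MHCIIhi arrays and on no MHCIIlo array, and was not called. The mitochondrial enzymes that make citrulline were lower in kidney as well. Otc, ornithine transcarbamylase, was not above background in kidney, where it was at least 405-fold lower than in MHCIIhi and at least 458-fold lower than in MHCIIlo cells (adjusted p = 1.4e-09 against the intestinal mean). For Cps1, carbamoyl phosphate synthetase, those bounds were 1358-fold and 219.6-fold. Nags, which makes the activator of Cps1, was above background on 1 of 3 kidney arrays, at -6.87, -5.86 and -6.55, against 3.20, 3.47 and 3.68 in MHCIIhi and 4.40, 4.53 and 4.72 in MHCIIlo cells.

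Of the 12 tested genes of ornithine, arginine and the urea cycle, 6 were called lower in kidney and 2 higher. The other lower ones were Arg2, the mitochondrial arginase (-3.20 ± 0.45, adjusted p = 1.9e-04), Aldh18a1 (-3.35 ± 0.28, adjusted p = 7.4e-06) and Pycr1 (-2.53 ± 0.28, adjusted p = 4.0e-05), which was above background on 2 of 3 kidney and 2 of 3 MHCIIlo arrays. Ass1, which uses citrulline to make arginine, was higher, with 3.08, 1.87 and 1.18 in kidney, against -0.80, -0.37 and -1.44 in MHCIIhi and -3.27, -4.59 and -4.03 in MHCIIlo cells. Against MHCIIhi the Ass1 difference was 2.91 ± 0.52, adjusted p = 0.00110, and in MHCIIlo it was above background on 1 of 3 arrays. Gatm, the mitochondrial first enzyme of creatine synthesis, was higher too. It read 0.92, -0.54 and -0.52 in kidney and was not well above background on any MHCIIlo array, where kidney was at least 14.7-fold higher.

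**Figure D3:**
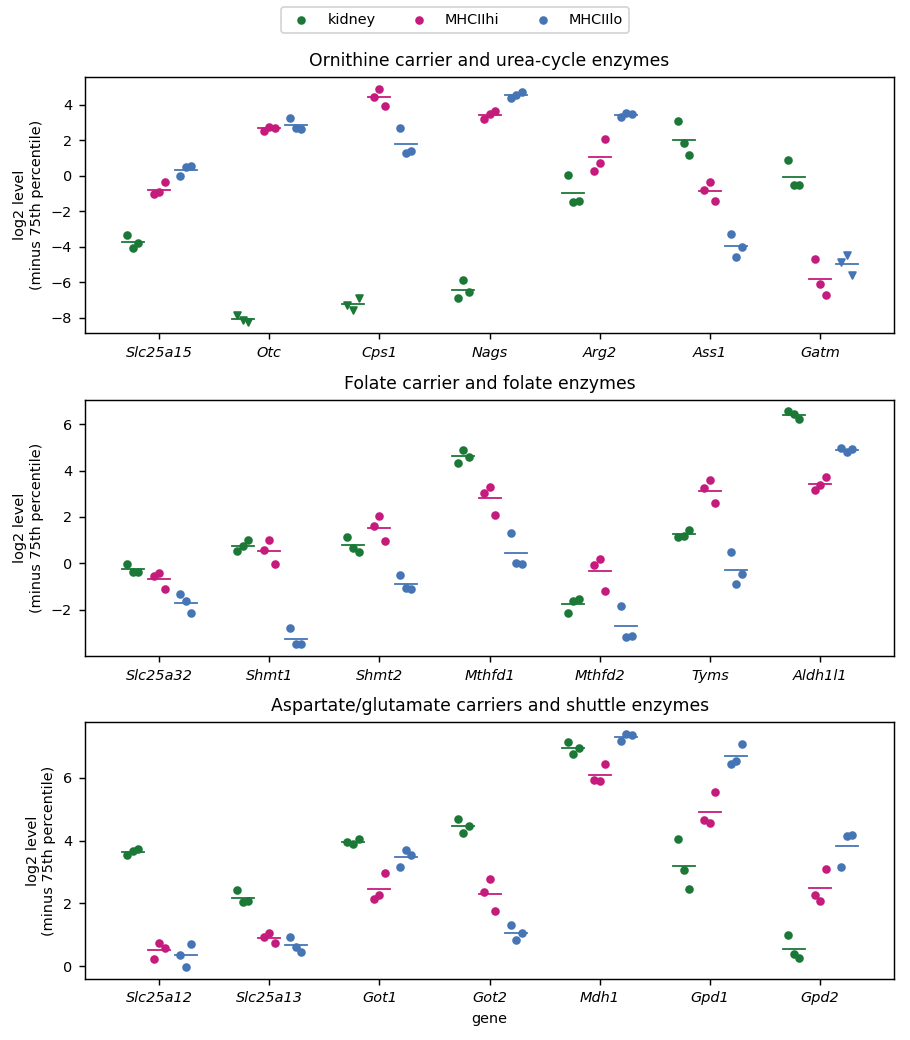
Log2 level on each array of members and of enzymes that use the same metabolites, for kidney (left in each triplet), MHCIIhi (middle) and MHCIIlo (right), with lines at group means. Triangles mark groups in which no array was well above background. Slc25a15 is lowest in kidney as are Otc, Cps1 and Nags, Slc25a32 is lowest in MHCIIlo as are Shmt1, Shmt2 and Mthfd1, and Slc25a12 is highest in kidney as is Got2.

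Among the other amino acid carriers, none was called between kidney and the intestinal mean. Slc25a38, a glycine carrier of haem synthesis, differed by 0.17 ± 0.14, adjusted p = 0.300, and Slc25a45 by -0.13 ± 0.24, adjusted p = 0.641. The small Slc25a45 difference averages unlike groups, since kidney read 0.20, 0.35 and 0.54, above MHCIIhi at -1.01, -0.91 and -0.03 and below MHCIIlo at 1.69, 1.80 and 1.38. Kidney was called higher than MHCIIhi (1.01 ± 0.27, adjusted p = 0.0102) and lower than MHCIIlo (-1.27 ± 0.27, adjusted p = 0.00253). The call against MHCIIhi was lost with normexp background correction (0.80), with slide as a random block, and without MHCIIhi 1, MHCIIhi 2 or kidney 3, and normexp also ended the call against MHCIIlo (-0.95). Slc25a44, a carrier of branched-chain amino acids, read -0.94, -1.10 and -1.02 in kidney, close to -0.95, -1.15 and -0.59 in MHCIIhi and below 0.17, 0.40 and 0.34 in MHCIIlo cells. Its kidney difference was -1.32 ± 0.18, adjusted p = 1.9e-04 against MHCIIlo and -0.12 against MHCIIhi, where it was not called.

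Slc25a29, a carrier of basic amino acids, gave no settled result. Its probe read 0.52, -0.47 and -1.05 in kidney, against -0.94, -1.13 and 2.88 in MHCIIhi and 1.62, 0.74 and 0.49 in MHCIIlo cells, so that MHCIIhi 3 stood above every other array. A second probe of the same transcript, further on, read -0.69, -0.36 and -0.24 in kidney, against -2.63, -1.97 and -2.44 in MHCIIhi and -3.24, -3.61 and -4.31 in MHCIIlo cells. The kidney difference was -0.94 by the first probe and 2.60 by the second. Likewise Slc25a35 differed by 0.85 by the probe used and by 2.41 by its other probe.

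**Figure D4:**
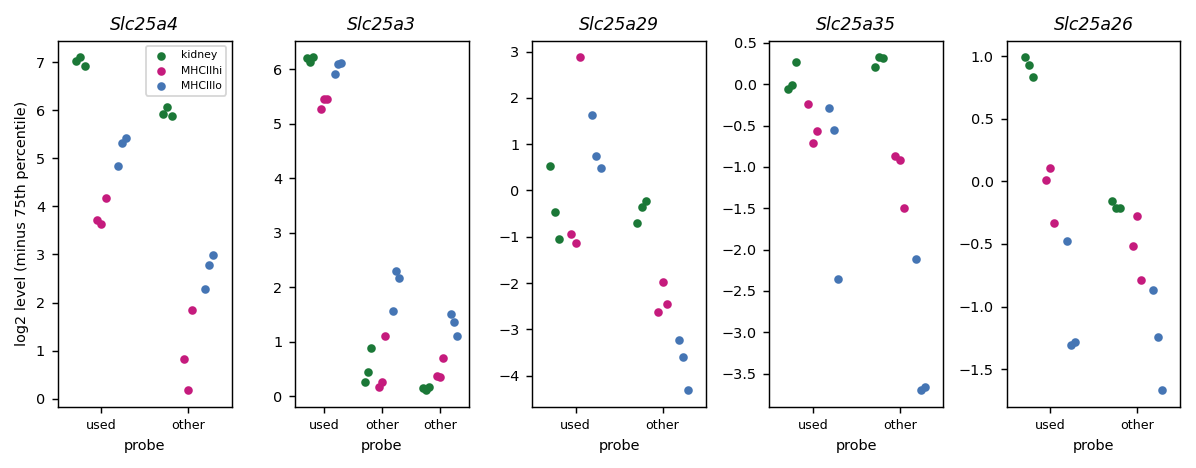
Log2 levels of every probe of 5 members on each array, with the probe used on the left of each panel. The probes of Slc25a4 and Slc25a26 order the groups alike, whereas those of Slc25a3 and Slc25a29 place kidney on opposite sides of the intestinal mean.

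Of 8 carriers of cofactors and pyrimidine nucleotides 4 were called higher in kidney than in intestine and none lower by limma (6 and 0 at an unadjusted p below 0.05), beside 27.4% and 24.8% of all genes. The other 4 did not pass, and against MHCIIlo alone Slc25a36 (-0.34) and Slc25a42 (-0.09) had differences below 0. Slc25a16, related to a yeast carrier for coenzyme A, had 0.94, 0.14 and 0.28 in kidney, against -1.94, -1.95 and -2.23 in MHCIIhi and -2.17, -2.98 and -3.30 in MHCIIlo cells (2.88 ± 0.28, adjusted p = 1.7e-05). Slc25a17, which serves the peroxisome with coenzyme A and other adenine nucleotides, differed by 1.26 ± 0.16, adjusted p = 9.9e-05. For these carriers every kidney array lay above every intestinal array.

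Slc25a26, which imports S-adenosylmethionine for methylation in the matrix, had 0.99, 0.93 and 0.83 in kidney, against 0.01, 0.11 and -0.33 in MHCIIhi and -0.48, -1.30 and -1.28 in MHCIIlo cells (1.46 ± 0.21, adjusted p = 2.6e-04). Its coding probe printed above gave a smaller difference of 0.70. Slc25a32, the folate carrier, and Slc25a33 and Slc25a36, the pyrimidine nucleotide carriers, were not called against the intestinal mean (0.94, 0.71 and 0.06). Against MHCIIlo alone, kidney was higher in Slc25a32 (1.45 ± 0.27, adjusted p = 0.00107) and in Slc25a33 (1.32 ± 0.21, adjusted p = 4.3e-04), of which the Slc25a32 call was lost with normexp background correction (0.65). Slc25a42, a carrier of coenzyme A, differed by 0.26 ± 0.34, adjusted p = 0.520. Of 14 tested genes of folate and S-adenosylmethionine metabolism 6 were called higher in kidney and 2 lower, with Mthfd1 (2.99) and Aldh1l1 (2.24) among the higher ones.

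Slc25a20, the carnitine/acylcarnitine carrier that brings fatty acids to oxidation, differed by -0.57 ± 0.21, adjusted p = 0.0359 and was not called. It read 0.08, -0.19 and 0.11 in kidney, against 0.44, -0.21 and 0.37 in MHCIIhi and 1.33, 0.85 and 0.66 in MHCIIlo cells. Kidney and MHCIIhi arrays overlapped, and every MHCIIlo array lay above both. Against MHCIIlo alone Slc25a20 differed by -0.95 ± 0.25, adjusted p = 0.00688, under the size limit and not called. Around it, 6 of 13 genes of the carnitine shuttle and of fatty acid oxidation were called higher in kidney and 2 lower. Cpt1b and Cpt1a, the outer-membrane carnitine palmitoyltransferases, were higher by 2.63 and 1.59 (adjusted p = 5.9e-05 and 2.0e-04). Slc22a5, the carnitine importer of the plasma membrane, was lower, at -2.28, and so was Cpt2, at -1.12.

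The mitoferrins, which import iron for haem and iron-sulfur clusters, differed from each other. Slc25a37, mitoferrin 1, had 1.65, 1.54 and 1.66 in kidney, against 3.37, 3.27 and 3.74 in MHCIIhi and 4.23, 4.31 and 4.13 in MHCIIlo cells (-2.23 ± 0.15, adjusted p = 1.8e-06). Slc25a28, mitoferrin 2, read 2.72, 2.73 and 2.74 in kidney, within the range of the intestinal arrays, 1.99, 2.31 and 2.63 in MHCIIhi and 2.43, 3.08 and 3.14 in MHCIIlo cells (0.14 ± 0.21, adjusted p = 0.574). Of 17 genes of haem and iron-sulfur cluster synthesis 4 were called higher in kidney, or 23.5% beside 27.4% of all genes. Among them were Iscu (1.73) and Fech (1.72). Abcb10, an inner-membrane transporter that binds mitoferrin 1, was the 1 gene called lower (-3.18 ± 0.34, adjusted p = 3.1e-05). Markers of red blood cell precursors, which use Slc25a37 heavily, were above background for 5 of 9 genes on all kidney arrays and for 3 of 9 in each intestinal group. Their summed log2 level was 5.06 to 5.69 in kidney, against -0.37 to 2.73 in MHCIIhi and 1.57 to 2.79 in MHCIIlo cells. Of the 5 tested, 1 was called higher in kidney than in intestine and 4 were not called. The median difference was 0.72 and the largest 8.37, so the sum does not stand for the list. The part of red blood cell precursors in the Slc25a37 result was not tested.

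The glutathione carriers Slc25a39 and Slc25a40 differed by 0.94 ± 0.17, adjusted p = 0.00111 and by 1.05 ± 0.17, adjusted p = 4.5e-04. Against the intestinal mean Slc25a40 alone was called. Slc25a39 was called there in 7 of 23 alternatives, among them quantile normalization, normexp background correction and the mean of the gene's probes. Against MHCIIhi Slc25a39 was called (1.05 ± 0.20, adjusted p = 0.00163), but not without MHCIIhi 3 or kidney 1, and Slc25a40 was not (0.93). Against MHCIIlo Slc25a40 was called (1.18) and Slc25a39 was not (0.82). The Slc25a40 difference from the intestinal mean fell under 1 without MHCIIlo 3 (0.986), without kidney 1 (0.986) and under quantile normalization (0.93). It was 0.31 (adjusted p = 0.0636) with normexp background correction and 0.57 (adjusted p = 0.0757) with the mean of the gene's probes. Its other 3 probes were above background on at most 4 of 9 arrays.

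Among the uncoupling protein-like carriers 2 of 3 were called higher in kidney, beside 27.4% of all genes. Slc25a30, first described as a kidney mitochondrial carrier, had 1.79, 1.17 and 1.24 in kidney, against -2.54, -2.81 and -3.41 in MHCIIhi and -3.95, -4.28 and -3.68 in MHCIIlo cells. The difference was 4.84 ± 0.24, adjusted p = 3.4e-07. It was above background on 1 of 3 MHCIIlo arrays, so its level there is not well measured, and with normexp background correction the difference was 2.97. Against MHCIIhi, where all arrays were above background, kidney was 20.0-fold higher (4.32 ± 0.28, adjusted p = 2.4e-06). Its other 2 probes gave 4.60 and 4.26 against the intestinal mean, the second being the signature probe printed above, which was above background on the kidney arrays alone. Slc25a27, uncoupling protein 4, had -1.02, -1.33 and -1.10 in kidney, against -3.31, -3.09 and -4.20 in MHCIIhi cells, a difference of 2.39 ± 0.32, adjusted p = 1.8e-04. In MHCIIlo it was not well above background on any array, and kidney was at least 6.85-fold higher. Normexp background correction ended the kidney calls of Slc25a27, at 0.99 against MHCIIhi, 0.66 against MHCIIlo, which is less than the bound, and 0.83 against the intestinal mean.

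Slc25a14, uncoupling protein 5, was the steadiest member. It read 0.78, 0.62 and 0.62 in kidney, against 0.56, 0.65 and 0.57 in MHCIIhi and 0.62, 0.67 and 0.51 in MHCIIlo cells. Kidney differed from the intestinal mean by 0.08, with a standard error of 0.13, and MHCIIhi from MHCIIlo by -0.01 with a standard error of 0.15. Family genes listed under other names gave little. Of 6 tested, AU042651 (Slc25a48 in RefSeq) was the 1 called, lower in kidney (-2.61 ± 0.46, adjusted p = 7.6e-04). Ucp2, an uncoupling protein found in many tissues, differed by -0.41 and was not called, and Ucp1 and Ucp3 were above background on no array.

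Slc25a43, with no known substrate, was above background in kidney alone, at -2.74, -2.64 and -2.62. Kidney was at least 5.13-fold higher than MHCIIhi and at least 2.39-fold higher than MHCIIlo. Slc25a43 entered the test through kidney alone, so its adjusted p against the intestinal mean, 9.3e-07, sets kidney against values at background. With normexp background correction this difference was -0.11. Slc25a46, a carrier-like protein of the outer membrane, differed by -0.12 ± 0.13, adjusted p = 0.408.

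Against each intestinal group, kidney had 13 members higher and 6 lower than MHCIIhi, where 25.6% and 22.8% of all genes were called. It had 15 higher and 11 lower than MHCIIlo, where 29.8% and 27.8% were called. Again the shares of the members, 31.7% and 14.6% against MHCIIhi and 36.6% and 26.8% against MHCIIlo, lay near those of all genes.

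Between the intestinal groups 4 members were higher and 8 lower in MHCIIhi than in MHCIIlo, with 14.9% of all genes called higher and 16.1% lower. The members' shares were 9.76% and 19.5%. Counts of partner lists in this comparison are to be read beside the same 14.9% and 16.1%. Higher in MHCIIhi were the folate carrier Slc25a32, the pyrimidine nucleotide carrier Slc25a33 and the uncoupling protein-like carriers Slc25a27 and Slc25a30. Lower were the amino acid carriers Slc25a15, Slc25a22, Slc25a44 and Slc25a45, the ADP/ATP carrier Slc25a4, the dicarboxylate carrier Slc25a10, Slc25a34, and Slc25a18, which was not above background in either group. The median difference of the members was -0.57, against -0.24 over all genes tested. That gap did not hold under every alternative. With normexp background correction the median was -0.40, against -0.50 over all genes, and with no filter on dim probes -0.58, against -0.53.

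Arrays and slides bear on this comparison. MHCIIhi 3 was read on the slide of the MHCIIlo arrays and MHCIIhi 1 and 2 on another. With slide as a fixed block, the difference is that of MHCIIhi 3 from the MHCIIlo mean, and 0 members were called higher and 0 lower by limma. At an unadjusted p below 0.05, members passed there in about the same share as all genes. Over all genes that fit called 256 higher and 69 lower. That value has 1 array in the MHCIIhi arm, which is also part of the overall difference, and its spread comes from the other arrays of the fit. Of the 12 called members, Slc25a18 was above background on no intestinal array and Slc25a27 on no MHCIIlo array, so their differences are not measured. The other called members kept their direction within the slide and were smaller there. Without MHCIIhi 3, by contrast, 13 members were lower. The counts were 2 higher and 5 lower without MHCIIhi 1, and 2 were higher without MHCIIhi 2. Without both MHCIIhi 3 and MHCIIlo 1, 6 members were higher and 12 lower. The calls over all genes moved as well. They were 6199 in the fit as reported, 8290 without MHCIIhi 3, 4865 without MHCIIhi 1 and 4278 without MHCIIhi 2. Without both MHCIIhi 3 and MHCIIlo 1 they were 9306, and with normexp background correction 2960. With normexp 0 members were higher and 4 lower by limma, with 4 higher and 21 lower at an unadjusted p below 0.05. The 4 still called were Slc25a4, Slc25a18, Slc25a34 and Slc25a45. Quantile normalization ended the calls of Slc25a4 (-0.90), Slc25a10 (-0.59), Slc25a30 (0.96) and Slc25a32 (0.97).

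**Figure D5:**
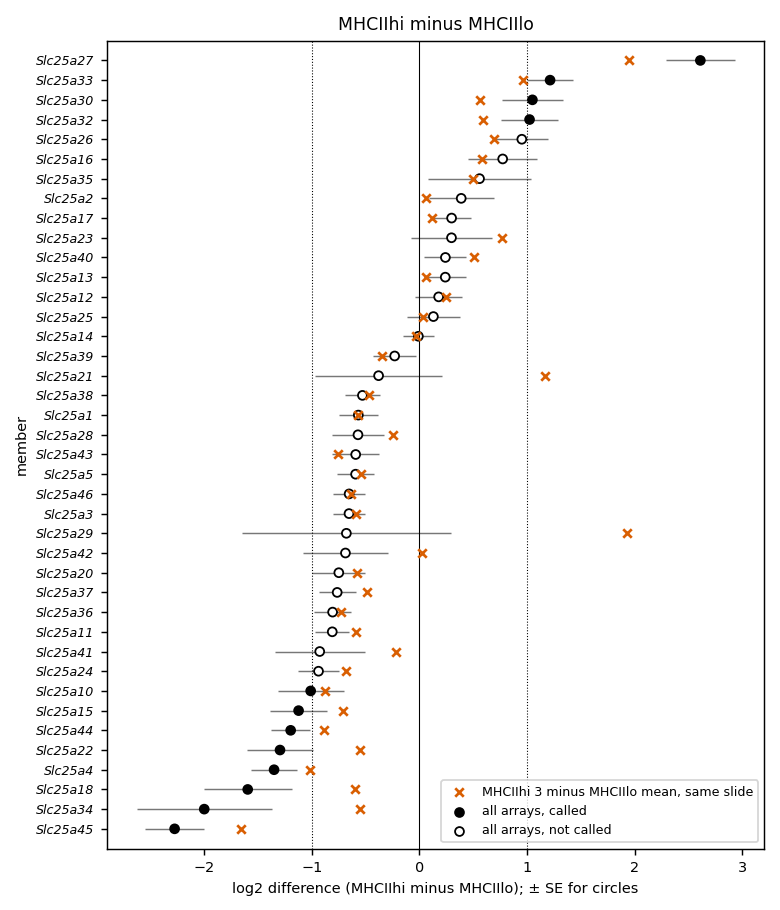
Log2 difference of MHCIIhi minus MHCIIlo for the same 40 members over all arrays, with its standard error (circles, filled where called), and the value of MHCIIhi 3 minus the MHCIIlo mean on their shared slide (crosses). For the 12 called members the crosses lie on the same side of 0 as the circles and nearer to it, but Slc25a18 and Slc25a27 were above background on no MHCIIlo array.

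Slc25a45, a carrier-family member of the amino acid class, was lower, with -1.01, -0.91 and -0.03 in MHCIIhi, against 1.69, 1.80 and 1.38 in MHCIIlo cells (-2.27 ± 0.27, adjusted p = 6.0e-04). The groups did not overlap, and within the shared slide the difference was -1.66 (adjusted p = 0.0567, with a lone MHCIIhi array assumed to vary like the others). Slc25a44 read -0.95, -1.15 and -0.59 in MHCIIhi, against 0.17, 0.40 and 0.34 in MHCIIlo cells (-1.20 ± 0.18, adjusted p = 0.00180, and -0.89 within the slide). Slc25a22 differed by -1.29 ± 0.30, adjusted p = 0.00961, with -0.55 within the slide, and Slc25a15 by -1.12 ± 0.27, adjusted p = 0.00998, with -0.71 within the slide. Without MHCIIhi 1 the Slc25a15 difference was -0.99 and under the size limit.

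Slc25a4, with the levels given above, differed by -1.35 ± 0.22, adjusted p = 0.00210, and by -1.02 within the slide. Its second probe differed by -1.73. Slc25a10 differed by -1.01 ± 0.31, adjusted p = 0.0247 and by -0.88 within the slide. The Slc25a10 call was lost without MHCIIhi 1 (-0.90), MHCIIhi 2 (-1.06), MHCIIlo 2 (-1.04) or MHCIIlo 3 (-0.94). Slc25a34 differed by -2.00 ± 0.63, adjusted p = 0.0281, with MHCIIhi 3 inside the range of the MHCIIlo arrays. Its call was lost without MHCIIhi 1 (-1.89), MHCIIhi 2 (-1.39), MHCIIlo 2 (-1.83) or MHCIIlo 3 (-1.71).

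Beside these, 2 of 12 genes of ornithine, arginine and the urea cycle were called lower in MHCIIhi and 3 higher. Arg2 read 0.29, 0.74 and 2.09 in MHCIIhi, against 3.30, 3.56 and 3.47 in MHCIIlo cells (-2.40 ± 0.51, adjusted p = 0.00676), while Cps1 read 4.42, 4.91 and 3.95, against 2.68, 1.29 and 1.42 (2.63 ± 0.40, adjusted p = 0.00175). Gls2, the liver-type glutaminase, read -0.94, -0.32 and -1.37 in MHCIIhi and was not well above background in MHCIIlo, where MHCIIhi was at least 8.26-fold higher. Enterocyte markers were lower in MHCIIhi for 10 of 11 genes. Their summed log2 level was 10.1 to 11.2 in MHCIIhi, against 11.8 to 12.4 in MHCIIlo cells, and their part in the differences of these carriers was not tested.

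Slc25a32 imports folate, and FAD, into mitochondria, where serine gives up carbon units that serve nucleotide synthesis. It read -0.54, -0.41 and -1.12 in MHCIIhi, against -1.34, -1.63 and -2.16 in MHCIIlo cells (1.02 ± 0.27, adjusted p = 0.0147, and 0.59 within the slide). The groups did not overlap, but the call was lost without MHCIIhi 1 (0.947), MHCIIhi 2 (0.882) or MHCIIlo 3 (0.798). Of 14 tested genes of folate and S-adenosylmethionine metabolism 7 were called higher in MHCIIhi and 1 lower, with a median difference of 1.09. Shmt1 and Shmt2, the cytosolic and mitochondrial serine hydroxymethyltransferases, were higher by 3.77 and 2.43 (adjusted p = 2.3e-04 and 8.2e-04). Tyms, which makes thymidylate, was higher by 3.44, and Mthfd1 and Mthfd2, which convert folate forms into each other, by 2.39 and 2.36. Aldh1l1, which oxidises formyl-folate, was lower (-1.48 ± 0.19, adjusted p = 8.3e-04).

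Slc25a33, which exchanges pyrimidine nucleotides, read 0.81, 0.68 and 0.36 in MHCIIhi, against -0.26, -0.88 and -0.64 in MHCIIlo cells (1.21 ± 0.21, adjusted p = 0.00289, and 0.96 within the slide). Its paralog Slc25a36 had the opposite sign, at -1.01, -0.78 and -0.77 in MHCIIhi, against -0.25, 0.18 and -0.07 in MHCIIlo cells (-0.81 ± 0.17, adjusted p = 0.00694), and was not called. Dividing-cell markers were higher in MHCIIhi for 10 of 10 genes. Their summed log2 level was 6.28 to 7.28 in MHCIIhi, against 3.46 to 4.42 in MHCIIlo cells. Their part in the results for Slc25a32 and Slc25a33 was not tested.

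Slc25a27 read -3.31, -3.09 and -4.20 in MHCIIhi, against -6.50, -6.23 and -5.69 in MHCIIlo cells, where no array was well above background. MHCIIhi was at least 1.31-fold higher. The adjusted p of 6.4e-04 belongs to the fitted difference of 2.61, not to this bound, and sets MHCIIhi against values at background. With normexp background correction the difference was -0.32. Slc25a30 differed by 1.05 ± 0.28, adjusted p = 0.0159 and by 0.56 within the slide. Its call was lost without MHCIIhi 1 (0.861), MHCIIhi 2 (0.993) or MHCIIlo 2 (0.895), and normexp background correction turned the sign (-0.24).

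Genes of mitochondrial import and biogenesis were called higher in MHCIIhi for 6 of 17 and lower for 3. Hspd1, the chaperonin of the matrix, was higher by 2.11 and its partner Hspe1 by 1.87 (adjusted p = 0.00149 and 0.00146). Ppargc1a, a coactivator of mitochondrial biogenesis, was lower, at -1.93, and so was Tfam, which packages mitochondrial DNA, at -1.36.

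Across the 3 groups, kidney cells held tubule markers above background on all arrays. They were 10 of 10 genes of the proximal tubule and 11 of 11 of the loop, distal tubule and collecting duct. On all MHCIIhi arrays 6 of the proximal tubule genes were above background too, and 5 on all MHCIIlo arrays. Of these 10 genes 8 were called higher and 2 lower in kidney than in intestine. Of the other list 2 genes were above background on all arrays of each intestinal group, and 11 of 11 were called higher in kidney. Kidney cells also held 6 of 6 endothelial markers. Their summed log2 level was 4.37 to 5.54, against -1.45 to -1.32 in MHCIIhi and -2.31 to -1.62 in MHCIIlo cells. Enterocyte markers were above background for 11 of 11 genes in both intestinal groups. Lymphocyte markers summed to 0.724 to 1.13 in kidney, 0.994 to 2.05 in MHCIIhi and 4.64 to 5.42 in MHCIIlo cells. The part of these other cells in the results was not tested. The 75th percentile of the signal was 599 to 769.7 on the kidney arrays, 213 to 371 on the MHCIIhi and 100.6 to 185 on the MHCIIlo arrays, so a dim member passes the background more readily in kidney. All members tested were above background on all kidney arrays, 35 of the 42 on all MHCIIhi arrays and 33 on all MHCIIlo arrays.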

How the data were processed

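RNA of 9 pools of sorted cells was labelled with Cy3 by Miltenyi, per the labels, and hybridised to single-colour arrays. Per the file headers, Agilent Feature Extraction 10.5.1.1 read the spots, and its deposited processed signal is an intensity with background subtracted and spatial trend removed, not yet normalized between arrays. Intensity also fills the table of values that the authors deposited, which equalled this signal over each array's median within a relative deviation of 2.37e-05, with no step stated. Every array held 45018 spots, none saturated. Control and outlier spots were left out and spots of a probe averaged (41174 probes), of which 24375 matched RefSeq (GRCm38.p6, names only). Probe positions and sequences are those of the array annotation on mm8.

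The 75th percentile of each array was subtracted from its log2 signals. Genes that cleared the background well on every array of some group were fitted over all 9 arrays with limma 3.58.1 (R 4.3.3, with the data.table package, version 1.17.8), with Benjamini-Hochberg adjustment over all 19993 genes. Calls needed an adjusted p below 0.05 and a log2 difference of at least 1. Fitting was tested on simulated data. Sequences and figures were made with Biopython 1.88, pandas 2.3.3 and matplotlib 3.10.9 (Python 3.11.15). The precision is limited by the 3 arrays per group. Replicates are pools of mice, per the labels.

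Members, substrate classes, partner lists and markers were chosen with earlier results of these data known. Lists are given by counts and were not tested as sets, a few genes are counted and not reported here by name or in figures, and older names of a gene already on a list were counted once. Named members were up to 8 per direction with the largest called difference where measured, up to 4 per direction with the largest bound of the fold, up to 3 with the smallest difference, and others of their class. Partner genes were up to 4 called per direction and list, and those named as not called were chosen after their values were seen. Alternatives were other normalizations, normexp background correction with an offset of 50, filters, probe choices and priors, the replicate number and slide as blocks, and leaving out arrays. Leaving out MHCIIhi 3 with MHCIIlo 1, and taking the highest probe matched to RefSeq, were chosen after seeing the data.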

Additional observations from a re-analysis of the deposited data

How the results depend on the processing

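Of the 25 alternatives, those that leave out 1 array each gave 2 to 6 members higher and 5 to 13 lower in MHCIIhi than in MHCIIlo, 12 to 15 higher and 6 to 9 lower in kidney than in intestine, 12 to 14 and 5 to 6 than in MHCIIhi, and 15 to 17 and 11 to 12 than in MHCIIlo. The counts of MHCIIhi minus MHCIIlo moved most without MHCIIhi 1 (2 higher, 5 lower), MHCIIhi 2 (2 higher), MHCIIhi 3 (13 lower) and MHCIIlo 1 (6 higher). Calls over all genes moved there too, to 4865, 4278, 8290 and 7509 in that order, against 6199. For MHCIIhi minus MHCIIlo, 2 members were higher under quantile normalization, under scaling to the median of genes above background on all arrays, under the filter on all 9 arrays, and with slide as a random block. With normexp background correction 0 were higher (4 at an unadjusted p below 0.05) and 4 lower by limma. With slide as a fixed block limma called 0 higher and 0 lower, and members passed an unadjusted p below 0.05 in about the same share as all genes. Without a size threshold 19 were lower. The filter on all 9 arrays left 8 members higher in kidney than in intestine and 8 higher than in MHCIIhi, as it tests 32 members. The other counts of members stayed within 1.5 times those reported. Over all genes, 6199 were called in MHCIIhi minus MHCIIlo, against 2960 with normexp, 325 with slide as a fixed block, 4024 with the filter on all 9 arrays, 10016 without a size threshold and 9306 without both MHCIIhi 3 and MHCIIlo 1. In kidney minus intestine 10433 were called, against 5959 with that filter and 16300 with no filter. That filter gave 5444, against 9681, in kidney minus MHCIIhi and 7021, against 11518, in kidney minus MHCIIlo, where no filter gave 17743.

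Signs turned with normexp background correction in members that were above background on at most 1 of 3 MHCIIlo arrays. These were Slc25a21 in kidney minus intestine (-0.73), kidney minus MHCIIhi (-0.30) and kidney minus MHCIIlo (-1.15), Slc25a43 in kidney minus intestine (-0.11) and kidney minus MHCIIlo (-0.55), Slc25a27 (-0.32) and Slc25a30 (-0.24) in MHCIIhi minus MHCIIlo, and Slc25a2 in kidney minus MHCIIlo (-1.33, against 0.87). Slc25a2 was not called in the fit as reported, and was called higher without MHCIIlo 1 (1.12), without both MHCIIhi 3 and MHCIIlo 1 (1.12) and without a size threshold. The cause was not tested. Signs were not tracked where neither the reported fit nor the alternative made a call. Quantile normalization moved the median of all genes in MHCIIhi minus MHCIIlo to -0.067, against -0.24, and the share of calls that were higher to 56.7%, against 48.1%. Under normexp the higher share of kidney minus intestine was 29.5%, against 52.5%.

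With the replicate number as a block, limma called 4 members higher and 8 lower in MHCIIhi than in MHCIIlo and 13 higher and 8 lower in kidney than in intestine, the counts reported. Deviations of same-numbered arrays of MHCIIhi and MHCIIlo correlated at 0.19, -0.35 and 0.28, and those of kidney with either intestinal group at -0.12 to 0.04. With 3 arrays per group, and MHCIIhi 3 on another slide than MHCIIhi 1 and 2, such values cannot show whether the numbers pair the samples. Signal over background was lowest on the MHCIIlo arrays, so differences of members near background there are the least well measured.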

Other observations

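Mitochondrial transport outside the Slc25 family also differed between the organs. Mpc1 and Mpc2, the subunits of the pyruvate carrier, were both higher in kidney than in intestine (1.71 ± 0.15, adjusted p = 8.9e-06 for Mpc1 and 1.76 ± 0.15, adjusted p = 7.3e-06 for Mpc2). Mcu, the pore of the calcium uniporter, read -2.98, -2.86 and -2.95 in kidney, against 0.07, 0.35 and 0.71 in MHCIIhi and 1.28, 1.51 and 1.55 in MHCIIlo cells (-3.84 ± 0.17, adjusted p = 1.5e-07). Of 9 tested genes of pyruvate, calcium and outer membrane transport 3 were called higher in kidney and 2 lower. Vdac1 and Vdac3, channels of the outer membrane, differed by 0.21 and -0.08 and were not called. Of 17 genes of mitochondrial import and biogenesis 0 were called higher by limma in kidney (2 at an unadjusted p below 0.05) and 2 lower, Tfam (-2.71) and Nrf1 (-1.88).

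Between the intestinal groups, 1 of 7 shuttle enzymes was higher in MHCIIhi (Got2, 1.24) and 4 were lower (Gpd1, -1.76, Gpd2, -1.35, Mdh1, -1.21, and Got1, -1.02). In the citrate cycle 1 of 18 was higher (Idh2, 1.18) and 3 were lower, with Ogdh at -1.55. The carnitine shuttle and fatty acid oxidation had 1 of 13 higher and 3 lower, glutamine and glutamate breakdown 2 of 7 higher and 2 lower, haem and iron-sulfur synthesis 1 of 17 higher and 1 lower (Abcb10, -2.03), and pyruvate, calcium and outer membrane transport 0 higher by limma (1 at an unadjusted p below 0.05) and 1 of 9 lower (Mcu, -1.07).

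Markers of other cell types were read as well. All gates took CD45- cells, which would remove macrophages. Of 8 macrophage markers 5 were above background on all kidney arrays, 6 on all MHCIIhi and 4 on all MHCIIlo arrays. Their summed log2 level was 1.19 to 2.64 in kidney, 7.32 to 8.14 in MHCIIhi and 4.50 to 6.30 in MHCIIlo cells. The sum does not stand for the list between the intestinal groups. Of the 6 tested, 2 were called higher and 2 lower in MHCIIhi, with a median difference of 0.16. Of 9 fibroblast and muscle markers 7 were above background on all kidney arrays, 4 on all MHCIIhi and 5 on all MHCIIlo arrays. They summed to at most 4.29 in kidney, 5.03 in MHCIIhi and 6.07 in MHCIIlo cells. That sum does not stand for the list between kidney and MHCIIhi. Of the 7 tested, 4 were called higher in kidney than in MHCIIhi and 1 lower, with a median difference of 2.21. Against the intestinal mean 2 were called higher and 1 lower, with a median of 1.03. Crypt stem cell markers summed to -0.21 to 0.029 in kidney, 3.59 to 4.60 in MHCIIhi and 0.98 to 1.52 in MHCIIlo cells. The part of these cells in the results on carriers was not tested.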
